A study of Mus musculus with 4 samples.

Results

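The nuclear-encoded subunit genes of respiratory complex I were taken as all protein-coding genes of GENCODE mouse release M21 whose symbol is Nduf followed by a, b, c, s or v and a digit. The rule named 37 genes, of which 36 had a value among the 12390 genes of the expression table, and all 36 passed the filter on low levels (a mean of at least 1 RPKM, reads scaled to transcript length and to library size). Ndufa4l2 was not analysed here. The rule also takes in Ndufa4, whose product was first counted to complex I and is now placed in complex IV. It leaves out Ndufab1, the acyl carrier protein subunit, so that 35 of the measured genes encode complex I subunits proper. Counts and medians of the 36 genes, called subunits below, include Ndufa4. RNA came from hematopoietic stem cells sorted out of mouse bone marrow by their surface proteins (Lin-, Sca-1+, CD150+, c-Kit+, CD48-), made into libraries with a low-input Smart-Seq kit. The 2 control libraries, labelled WT, came from mice with floxed Ddx21 alleles and no Cre, and the 2 knockout libraries, labelled KO, from mice with the same floxed alleles plus CAG-CreERT2. The CAG promoter is active in most cell types and CreERT2 is switched on by tamoxifen, so deletion need not be limited to blood cells. The sources used here do not give age, strain background, tamoxifen dosing or whether each library is a separate animal. P-values therefore measure the spread among these samples alone, and that spread may be technical.

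Complex I, NADH:ubiquinone oxidoreductase, is the entry point of the mitochondrial respiratory chain. It takes electrons from NADH at the tip of an arm that reaches into the matrix, passes them along iron-sulfur clusters to ubiquinone, and pumps protons through an arm in the inner membrane. The core subunits carry the chemistry, some encoded in the nucleus and the others in mitochondrial DNA, while accessory subunits hold the complex together. Hematopoietic stem cells are known to rely comparatively little on respiration while quiescent and to raise it when they leave quiescence. Ddx21 is a nucleolar DEAD box RNA helicase, and the comparison asks what its loss changes in the sorted cells.

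Ddx21 had control levels of 11.0 and 12.1 RPKM and knockout levels of 6.20 and 6.60 RPKM, a log2 fold change of -0.76 (SE 0.30, limma adjusted p = 0.158). Its level was thus lower in both knockout libraries but did not pass the threshold, and the mean in knockout was 0.555 of that in control. Over all tested genes 7.38% had both knockout libraries below both control libraries. Whether the lower level reflects the labelled deletion was not tested. Library totals ran from 43542059 to 63173389 reads. The libraries differed in composition along with the groups. The 7 late neutrophil markers summed to 25191 and 25502 RPKM in control and to 16016 and 9725 RPKM in knockout replicates 1 and 2, with 7 of 7 called lower. The 5 granule genes of myeloid progenitors summed to 44969 and 47191 RPKM in control and to 33489 and 22203 RPKM in knockout, 5 of 5 lower. The 5 bone matrix markers summed to 341 and 204 RPKM in control and to 4820 and 1286 RPKM in knockout, 5 of 5 higher. The 7 stem cell markers with a value (of 8) summed to 56.9 and 67.5 RPKM in control and to 98.0 and 142 RPKM in knockout, 2 of 7 higher, and the sort gate markers Ly6a, Kit, Slamf1 and Cd48 were all present, with 0 of 4 called. Of the other lists, 1 of 7 erythroid markers was called lower and 3 of 4 megakaryocyte markers were called higher. Of the 3 measured B cell markers 0 were called. Their sum stood at 21.8 and 17.9 RPKM in control and at 27.4 and 37.4 RPKM in knockout. The 3 T cell markers had no value. Over all tested genes 3.33% were called higher and 0.86% lower. These marker calls are those of the deposited values. After rescaling by a trimmed mean of log ratios, and after quantile normalization, limma called 0.0% of all genes. The part of the marker shifts in the values below was not tested. In control too, the granule and neutrophil sums far exceeded the stem cell sum, beside 582312 and 575409 RPKM over all genes in replicates 1 and 2. Levels below are therefore those of the sorted samples and cannot be assigned to stem cells alone. In bulk samples fewer cells of a type and less RNA per cell cannot be told apart.

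Complex I subunit transcripts were mostly abundant, and as deposited their mean levels in knockout lay close to those in control. The direction depended on how libraries were scaled, as the next paragraph gives. Of the 36 genes, 0 rose and 0 fell in limma's test (Benjamini-Hochberg adjusted over all 11742 tested genes, threshold 0.05), against 4.19% of all tested genes, 3.33% higher and 0.86% lower. The smallest adjusted p among them was 0.428 (Ndufs1), and 0 members had an unadjusted p under 0.05, against 16.2% of all genes. The ratio of mean RPKM, knockout over control, ran from 0.906 for Ndufb7 to 1.25 for Ndufb2. The log2 fold changes (of log2(RPKM + 1), knockout minus control) had a median of 0.11 and ran from -0.14 to 0.28, with 31 above 0 and 5 below, beside 83.1% and 16.9% of all genes. The 95% intervals of single members reached from 0.679-fold to 1.75-fold, so changes of that size in a single subunit cannot be told from none here.

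The position of the subunits relative to other genes depended on how libraries were scaled. As deposited, all tested genes together had a median of 0.31, and all 36 subunits lay below it. After rescaling by a trimmed mean of log ratios the median of all genes was -0.0011 and all 36 subunits were below 0, with a median of -0.25. After quantile normalization the subunit median was 0.06 beside 0.01 for all genes, and 11 of 36 lay below the median of all genes. Limma called 0 subunits under either scaling, as it did 0.0% of all genes. Unadjusted p-values under 0.05 were held by 2 subunits after rescaling (Ndufb7 and Ndufc1) and by 1 after quantile normalization (Ndufb7), beside 15.6% of all genes after rescaling and 1748 of 11742 after quantile normalization. The voom method on recovered reads called 0 subunits, beside 0.179% of all genes higher and 0.0597% lower, and 4 subunits had an unadjusted p under 0.05 (Ndufb3, Ndufb5, Ndufb7 and Ndufc1), beside 1967 of 11734 genes. Every direction given below is that of the deposited values and is below 0 for each member after rescaling.

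**Figure D1:**
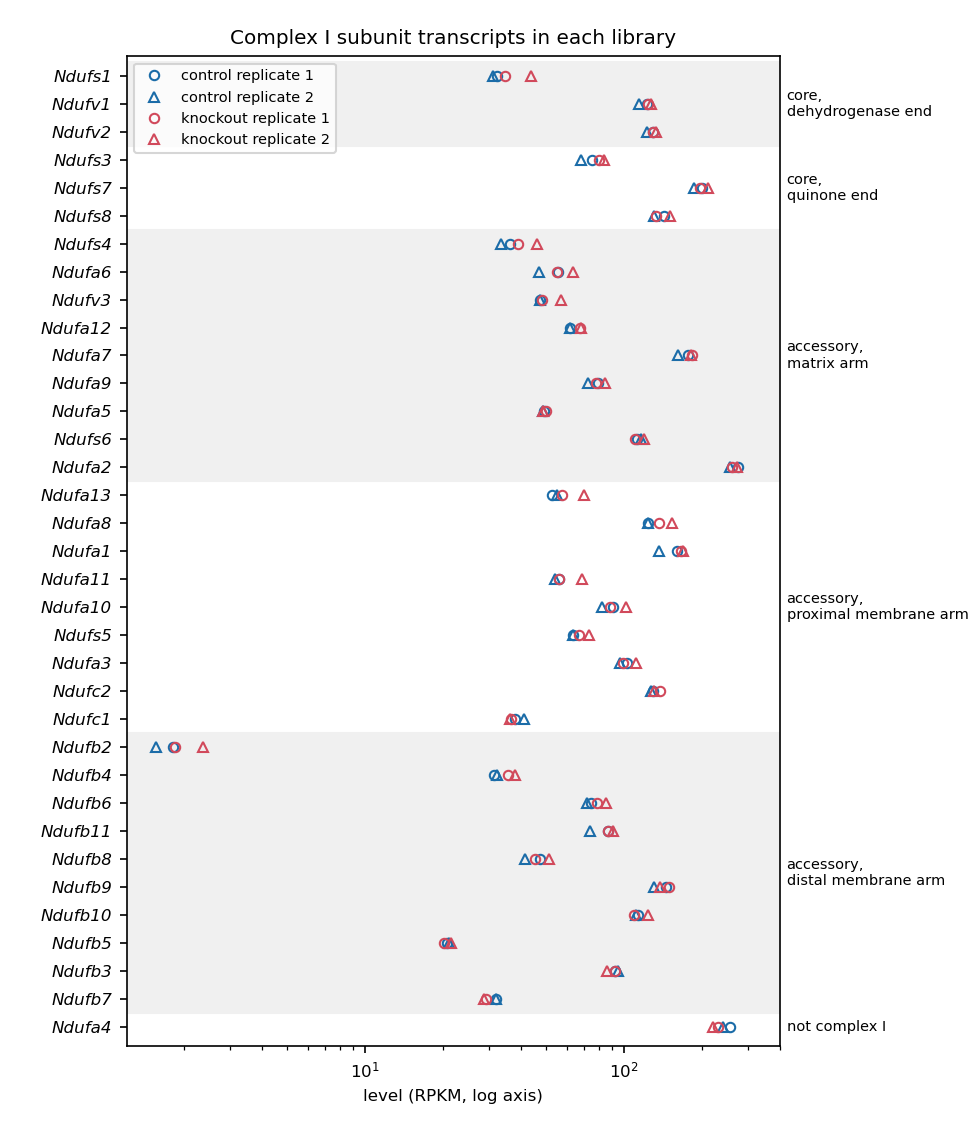
Level of each of 35 genes in the 4 libraries (x axis, RPKM on a log axis; blue, control; red, knockout; circles, replicate 1; triangles, replicate 2), grouped by place in the complex. The 4 points of a gene lie close together while genes range from 1.89 RPKM (Ndufb2, mean of 4 libraries) to 267 RPKM (Ndufa2).

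**Figure D2:**
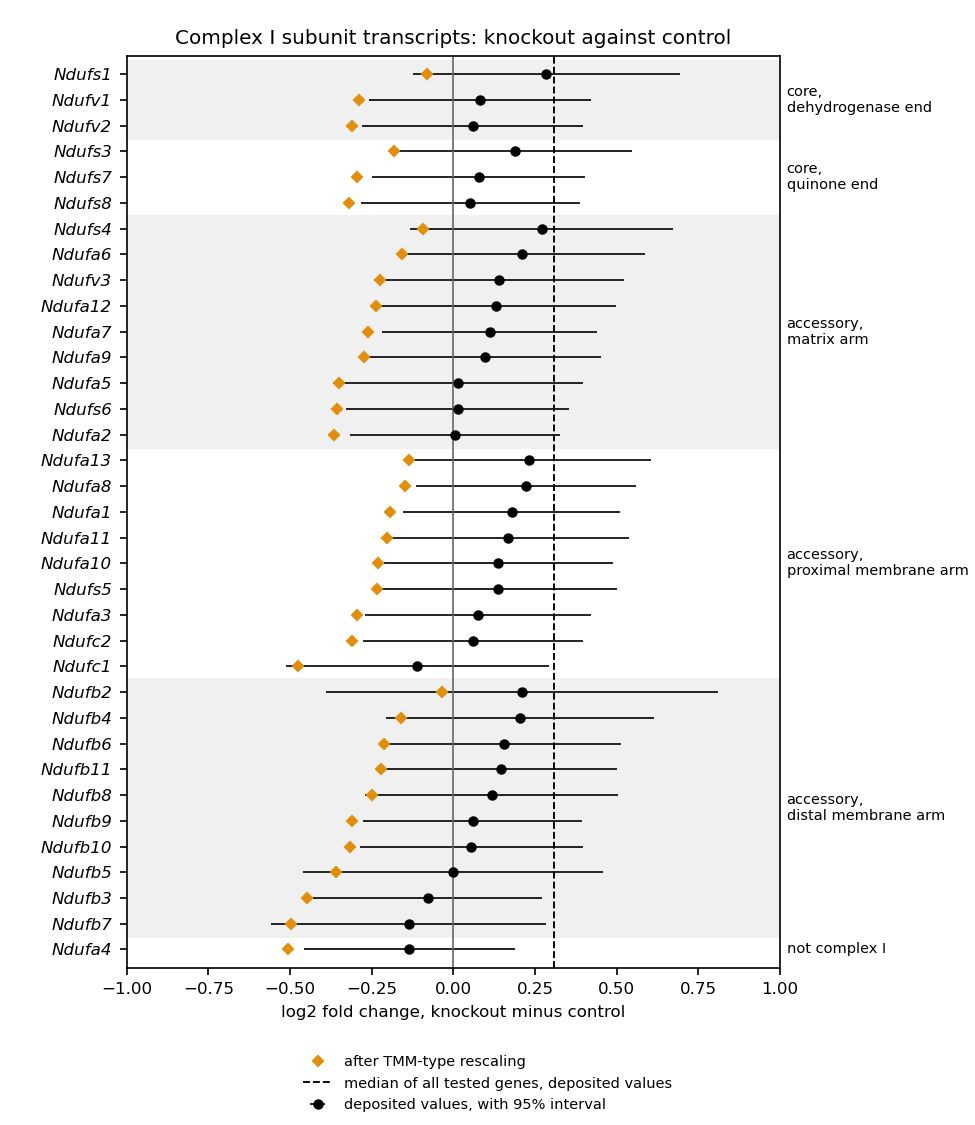
Log2 fold change, knockout minus control, of each of 35 genes with its 95% interval from limma (black) and after TMM-type rescaling (orange); the dashed line is the median of all tested genes, 0.31. All intervals of the deposited values include 0, all 35 points lie left of the dashed line, and all 35 orange points are below 0.

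The promoters of the family were searched for 3 short motifs. Every window printed below holds a match, which many members do not. The windows below, from RefSeq on GRCm38.p6, run from 250 bases before to 50 bases after the annotated start, 5′ to 3′ along the gene's strand. They are shown for Ndufs4 and Ndufb7, which lie near the upper and lower ends of the order of fold changes, for the core subunit Ndufs7, and for Ndufs6, which holds both an NRF1 and a YY1 match. Capitals mark exact matches, on either strand, to the NRF1 motif (nuclear respiratory factor 1; GCGC and TGCGC with any base between them), CCGGAAG (the motif of ETS factors such as GABP) or AAGATGGCG (YY1). The 3 motifs do not overlap in these windows.
Ndufs4, chr13:114388045-114388344, minus strand: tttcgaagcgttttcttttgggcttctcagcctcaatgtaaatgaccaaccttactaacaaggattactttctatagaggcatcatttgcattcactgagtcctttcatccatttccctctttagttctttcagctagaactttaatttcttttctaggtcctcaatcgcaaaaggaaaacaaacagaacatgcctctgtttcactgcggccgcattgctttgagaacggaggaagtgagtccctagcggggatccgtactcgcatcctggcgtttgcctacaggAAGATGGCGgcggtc
Ndufs6, chr13:73328433-73328732, minus strand: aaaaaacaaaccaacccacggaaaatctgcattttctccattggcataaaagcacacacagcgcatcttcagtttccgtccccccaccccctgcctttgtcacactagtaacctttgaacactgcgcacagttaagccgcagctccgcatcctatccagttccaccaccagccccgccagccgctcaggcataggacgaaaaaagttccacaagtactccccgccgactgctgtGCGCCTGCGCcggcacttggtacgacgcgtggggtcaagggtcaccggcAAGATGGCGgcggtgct
Ndufs7, chr10:80249199-80249498, plus strand: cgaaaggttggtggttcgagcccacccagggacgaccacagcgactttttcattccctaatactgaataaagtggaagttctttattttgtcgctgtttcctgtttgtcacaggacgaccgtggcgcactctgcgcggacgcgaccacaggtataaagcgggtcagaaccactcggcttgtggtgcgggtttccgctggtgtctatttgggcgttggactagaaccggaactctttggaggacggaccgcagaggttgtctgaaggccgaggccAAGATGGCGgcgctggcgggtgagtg
Ndufb7, chr8:83566508-83566807, plus strand: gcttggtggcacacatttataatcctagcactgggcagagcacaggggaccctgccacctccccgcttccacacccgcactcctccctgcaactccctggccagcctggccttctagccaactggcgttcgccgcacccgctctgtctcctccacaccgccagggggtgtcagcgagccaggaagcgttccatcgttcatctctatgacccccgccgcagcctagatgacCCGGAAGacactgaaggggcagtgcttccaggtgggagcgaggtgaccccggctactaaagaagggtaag

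A RefSeq window was found for 32 of the 36 genes, and Ndufa2, Ndufb9 and Ndufs1 were among those without one. AAGATGGCG was present in 5 of 32 (15.6%; Ndufa9, Ndufc1, Ndufs4, Ndufs6 and Ndufs7), against 4.11% of the 7858 tested protein-coding genes with a window. In all 5 it lay on the gene's own strand and after the start, with its first base at window positions 273 to 286. Of the 352 matches in all windows 75.9% lay on the gene's strand and 59.1% after the start. The NRF1 motif was present in 7 of 32 (21.9%), against 12.8% of all genes, and Ndufb4 held 3 matches. CCGGAAG was present in 4 of 32 (12.5%), against 22.7%, and Ndufs3 held 2. Fold changes overlapped between genes with and without each motif. The 5 genes with AAGATGGCG had log2 fold changes from -0.11 (Ndufc1) to 0.27 (Ndufs4) and the 27 without it from -0.14 to 0.23, with medians of 0.08 and 0.13. Ndufs1, which has no window, is not among them. A match is a description of letters, not a site in use.

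The core subunits at the dehydrogenase end take up electrons from NADH. Ndufv1 binds NADH and the flavin cofactor. It stood at 122 and 114 RPKM in control and at 123 and 127 RPKM in knockout (118 ± 5.80 against 125 ± 2.41 RPKM, SD, n = 2; log2 fold change 0.08, SE 0.17, limma adjusted p = 0.749). Ndufv2, which carries an iron-sulfur cluster beside it, stood at 129 and 122 RPKM in control and at 129 and 133 RPKM in knockout (log2 fold change 0.06, SE 0.17). In both genes the knockout libraries lay just above the higher control library. Ndufs1, the largest subunit, with several iron-sulfur clusters (ENSMUSG00000025968, minus strand of chromosome 1, 63143596 to 63176833 on mm10), had 32.4 and 31.2 RPKM in control and 34.8 and 43.6 RPKM in knockout (31.8 ± 0.797 against 39.2 ± 6.19 RPKM). Its log2 fold change of 0.28 (SE 0.21, 95% interval -0.12 to 0.69, limma adjusted p = 0.428) was the highest of the 36. Knockout replicate 2 was the higher of the pair. On the log2(RPKM + 1) scale these 2 libraries lay further apart than the knockout libraries of any other member, while as a ratio of RPKM those of Ndufb2 did (1.29 against 1.25). Ndufs1 was 1 of 3 members called higher without knockout replicate 1 (log2 fold change 0.44, limma adjusted p = 0.0284). The others were Ndufa13 (0.37, limma adjusted p = 0.0386) and Ndufs4 (0.39, limma adjusted p = 0.0422). These p-values rest on the spread of the control pair, and the lone knockout library is assumed to vary like it. In that setting 54.3% of all tested genes were called higher and 4.48% lower, so 3 of 36 is below the background.

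The core subunits at the quinone end pass electrons to ubiquinone. Ndufs7, which holds the last iron-sulfur cluster before ubiquinone, had the highest deposited level of the nuclear core genes described here, though by median protein-coding length Ndufv2 (268 RPKM) lies above it (224 RPKM). It stood at 199 and 186 RPKM in control and at 196 and 211 RPKM in knockout (log2 fold change 0.08, SE 0.17, limma adjusted p = 0.752). Ndufs8, an iron-sulfur subunit next to it, stood at 142 and 131 RPKM in control and at 133 and 150 RPKM in knockout (0.05, SE 0.17). The control and knockout libraries overlapped for both genes. Ndufs3, a scaffold of this end and among the first subunits to assemble, stood at 75.5 and 68.4 RPKM in control and at 80.2 and 83.9 RPKM in knockout (0.19, SE 0.18, limma adjusted p = 0.516). Here both knockout libraries lay above both control libraries. The 3 genes of the dehydrogenase end described before these (Ndufv1, Ndufv2 and Ndufs1) had a median log2 fold change of 0.08.

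The 9 accessory genes of the matrix arm had log2 fold changes from 0.01 (Ndufa2) to 0.27 (Ndufs4), with a median of 0.11 and 0 called. Ndufs4, needed for the dehydrogenase end to stay attached and mutated in Leigh syndrome (ENSMUSG00000021764, chromosome 13, 114287795 to 114388258, minus strand), stood at 36.2 and 33.6 RPKM in control and at 38.9 and 45.9 RPKM in knockout (34.9 ± 1.89 against 42.4 ± 4.97 RPKM; limma adjusted p = 0.442, 95% interval -0.13 to 0.67). Its groups did not overlap, with replicate 2 again the higher knockout library. Ndufs6, whose promoter is printed above and whose product binds zinc, stood at 112 and 116 RPKM in control and at 110 and 120 RPKM in knockout (0.01, SE 0.17), with overlapping groups. Ndufa2 had the highest level by the deposited lengths, while by the median length of its protein-coding transcripts Ndufa4 (635 RPKM) and Ndufv2 (268 RPKM) come before it (267 RPKM). It stood at 276 and 257 RPKM in control and at 262 and 274 RPKM in knockout (0.01, SE 0.16, limma adjusted p = 0.983). Ndufa6, an LYR-motif subunit that binds the acyl carrier protein, had the control libraries furthest apart of all members on the log2(RPKM + 1) scale, at 55.7 and 46.8 RPKM, and stood at 55.3 and 63.4 RPKM in knockout (0.21, SE 0.19). Ndufa12 was among the members with the closest replicates, at 62.0 and 61.7 RPKM in control and at 67.3 and 68.1 RPKM in knockout (0.13, SE 0.19, limma adjusted p = 0.643). Its groups stood apart by more than either pair differed. The remaining 4 genes (Ndufa5, Ndufa7, Ndufa9 and Ndufv3) had log2 fold changes from 0.01 to 0.14.

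The 9 accessory genes of the proximal membrane arm had log2 fold changes from -0.11 (Ndufc1) to 0.23 (Ndufa13), with a median of 0.14 and 0 called. Ndufa13, also known as GRIM-19 (ENSMUSG00000036199, chromosome 8, 69894180 to 69902558, minus strand), stood at 52.8 and 55.1 RPKM in control and at 57.5 and 70.1 RPKM in knockout (53.9 ± 1.62 against 63.8 ± 8.89 RPKM; SE 0.19, limma adjusted p = 0.462). Both knockout libraries were above both control libraries, and 30.0% of its exonic bases are shared with Tssk6 on the opposite strand. Ndufa8, a subunit with disulfide-bonded twin cysteine motifs on the intermembrane space side, stood at 124 and 123 RPKM in control and at 137 and 153 RPKM in knockout (0.22, SE 0.17, limma adjusted p = 0.446). Ndufc1, a small membrane-spanning subunit (ENSMUSG00000037152, chromosome 3, 51404677 to 51408988, minus strand), stood at 38.0 and 41.0 RPKM in control and at 36.6 and 36.3 RPKM in knockout (39.5 ± 2.14 against 36.5 ± 0.274 RPKM; SE 0.21, limma adjusted p = 0.713). It was the single gene of this arm with both knockout libraries below both control libraries, while 6 of the 9 had both above, beside 7.38% and 55.5% of all genes.

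The 10 Ndufb genes of the distal membrane arm, which holds the far proton channels, had log2 fold changes from -0.14 (Ndufb7) to 0.21 (Ndufb2), with a median of 0.09 and 0 called. Ndufb7, a twin cysteine subunit on the intermembrane space side (ENSMUSG00000033938, chromosome 8, 83566671 to 83571626, plus strand), stood at 32.0 and 32.1 RPKM in control and at 29.4 and 28.7 RPKM in knockout (32.1 ± 0.106 against 29.1 ± 0.437 RPKM). Its log2 fold change (SE 0.21, 95% interval -0.56 to 0.28, limma adjusted p = 0.667) was the lowest of the 36. Replicates were close and the groups did not overlap. Its level per length is uncertain. The deposited value divides by a transcript of 4435 bases, while the single annotated protein-coding transcript has 623 bases, on which its mean level would be 217 in place of 30.6 RPKM. Ndufb3 stood at 92.6 and 95.1 RPKM in control and at 92.2 and 85.6 RPKM in knockout (-0.08, SE 0.18), and Ndufb5 had a log2 fold change of -0.002. Ndufb4, whose promoter holds the 3 NRF1 matches, stood at 31.4 and 32.2 RPKM in control and at 35.8 and 37.9 RPKM in knockout (0.20, SE 0.21, limma adjusted p = 0.535). Ndufb2 was the exception in level, at 1.80 and 1.55 RPKM in control and at 1.84 and 2.37 RPKM in knockout (0.21, SE 0.31, limma adjusted p = 0.645). It rested on at least 351 reads per library, on a deposited length of 4371 bases where its shorter protein-coding transcript has 455, and on exons of which 145 bases are shared with Gm42420 on the same strand. Ndufa4, the complex IV subunit taken in by the rule, stood at 256 and 241 RPKM in control and at 231 and 221 RPKM in knockout (248 ± 10.6 against 226 ± 6.75 RPKM; -0.13, SE 0.16, limma adjusted p = 0.588), with both knockout libraries below both control libraries.

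Across the family, 18 genes had both knockout libraries above both control libraries, 4 had both below (Ndufa4, Ndufb3, Ndufb7 and Ndufc1) and 14 overlapped. Over all tested genes 55.5% were above and 7.38% below. After rescaling 0 were above and 26 below, beside 26.6% and 28.0% of all genes. The spread of each subunit between its own replicates was smaller than the spread limma assigned. The SE from a gene's own 2 pairs ran from 0.00966 (Ndufa12) to 0.160 (Ndufs1), with a median of 0.0792, and was below limma's SE (0.164 to 0.306) in 36 of 36. The share of all tested genes with this order was not counted, so it is not read as particular to the subunits. With each gene's own spread on 2 residual degrees of freedom, Ndufa12, Ndufb4 and Ndufb7 had unadjusted p-values of 0.00553, 0.0452 and 0.0120. Over all tested genes 567 of 11742 had one under 0.05, and 0 members or other genes passed after adjustment (smallest adjusted p = 0.538, ordinary linear model fitted by limma to all genes).

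The knockout libraries were unlike each other. Against the control mean, the median subunit stood at 0.05 in knockout replicate 1 and at 0.16 in replicate 2 on the log2 scale, beside 0.12 and 0.50 for all tested genes. The subunits spread more widely in replicate 2 (SD over members 0.151) than in replicate 1 (0.0795). Knockout replicate 2 was above replicate 1 for 28 of 36 subunits and for 84.7% of all genes, and it was the highest of the 4 libraries for 27. It was also the library with the lowest sums of neutrophil and granule markers given above. Other marker lists were ordered otherwise. The bone matrix sum was 4820 RPKM in knockout replicate 1 and 1286 RPKM in replicate 2. The erythroid sum was 970 and 471 RPKM in control and 848 and 452 RPKM in knockout. What these differences add to the subunit values was not tested. The order of the subunits by level hardly moved, with Spearman's rho between any 2 libraries from 0.989 to 0.995 (36 genes, a description within libraries that share gene lengths). Summed over the 36 genes, Ndufa4 included, the subunits held 0.592% and 0.565% of all RPKM in control and 0.607% and 0.702% in knockout. The RPKM of all genes summed to 518149 in knockout replicate 2, the lowest of the 4 libraries. As shares of each library's reads the subunits held 0.378% and 0.357% in control and 0.376% and 0.401% in knockout.

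**Figure D3:**
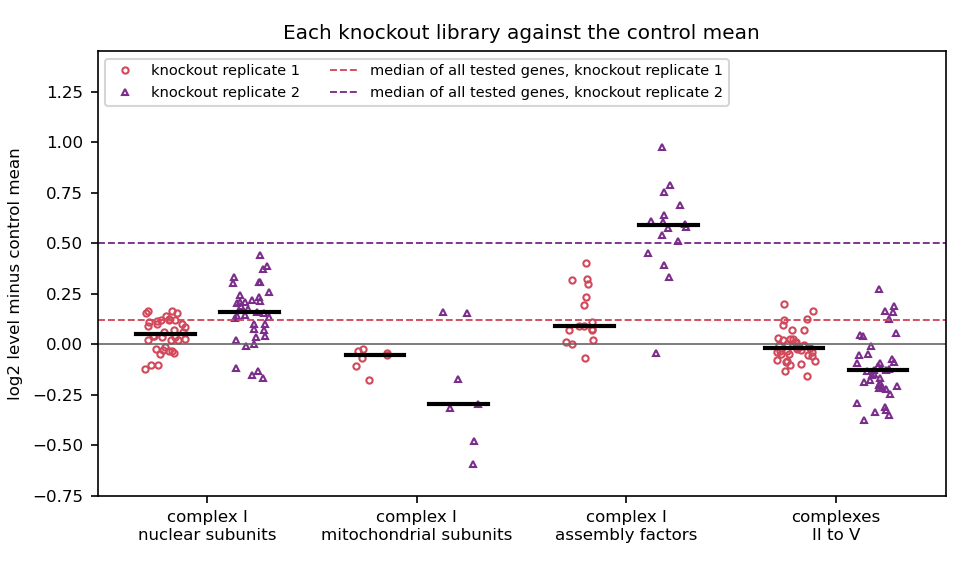
Log2 level minus the control mean in knockout replicate 1 (red circles) and replicate 2 (purple triangles) for 4 gene lists, with black bars at each list's median and dashed lines at the median of all tested genes in that library (0.12 and 0.50). Nuclear complex I subunits sit close to 0 with medians of 0.05 and 0.16, assembly factors near the dashed lines with 0.09 and 0.59, and mitochondrially encoded subunits below 0 with -0.05 and -0.29.

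Genes that work with the subunits had other medians, none with a called member. The 7 mitochondrially encoded core subunits had a median log2 fold change of -0.18. The most abundant, mt-Nd1, which forms the base of the quinone channel, stood at 6047 and 6087 RPKM in control and at 5844 and 4353 RPKM in knockout (-0.27, SE 0.18, limma adjusted p = 0.413). Of these 7 genes 2 were above 0, mt-Nd2 (0.06) and mt-Nd6 (0.06). The 39 measured nuclear subunits of complexes II to V had a median of -0.08, from -0.23 (Atp5b) to 0.18 (Sdhc), with 17 of 39 below and 4 above the controls in both libraries, beside 7.38% and 55.5% of all genes. The 16 measured assembly factors, which build complex I but do not stay in it, had a median of 0.34, from 0.03 (Ndufaf5) to 0.65 (Tmem126b). Of these, 16 of 16 were above 0, 11 above the controls in both libraries (55.5% of all genes were) and 10 above the median of all genes. After rescaling 7 of the 16 were above 0 and 9 below. Ndufaf1, which joins an early membrane intermediate, stood at 15.0 and 12.9 RPKM in control and at 17.5 and 23.0 RPKM in knockout (0.50, SE 0.25, limma adjusted p = 0.293). Tmem126b, of the same assembly complex, stood at 4.64 and 4.07 RPKM in control and at 5.69 and 9.52 RPKM in knockout (0.65, SE 0.33, limma adjusted p = 0.302). Tmem70 had a log2 fold change of 0.49 (SE 0.21, limma adjusted p = 0.218). The lists differ in level: the assembly factors had a median mean level of 14.4 RPKM, the subunits 81.6 RPKM and complexes II to V 188 RPKM. After rescaling the medians were -0.25 for the subunits, -0.02 for the assembly factors, -0.45 for complexes II to V and -0.55 for the mitochondrially encoded subunits. Differences between the lists were not tested. Ndufab1, left out by the rule, stood at 14.6 and 14.7 RPKM in control and at 16.2 and 18.2 RPKM in knockout (0.22, SE 0.25).

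Level went with fold change over all genes. Split into 4 bands of equal size by mean level, from low to high, the 11742 tested genes had median log2 fold changes of 0.33, 0.37, 0.35 and 0.14. Of the 36 subunits 35 were in the highest band, where their median was 0.11. Ndufb2 was in the lowest band. Across genes, Spearman's rho of level with fold change was -0.28 over the 36 subunits and -0.24 over all tested genes, and rho of transcript length with fold change was 0.13 and 0.21. Among the subunits level and length were themselves correlated (rho = -0.58). Length enters the RPKM value, and genes are not independent replicates.

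Many of the genes begin beside another gene. For 17 of 36 (47.2%) another protein-coding gene starts on the opposite strand within 1000 bases, against 18.3% of the 9839 tested protein-coding genes, a count that rests on gene ends in GENCODE M21 and carries no test. The partners include 2 mitochondrial ribosomal protein genes (Mrpl36 beside Ndufs6 and Mrpl47 beside Ndufb5), the ribosomal protein gene Rps28 beside Ndufa7 and the translation elongation factor gene Eef1b2 beside Ndufs1. Of the 17 partners 13 were tested and 0 were called. Their median log2 fold change was 0.28, that of the 13 adjoining subunits was 0.11, and 11 of 13 partners had the higher value of the pair. Of the partners 6 of 13 lay above the median of all genes, 0.31, a median that all 36 subunits lie below. Most tested genes thus lie above any single subunit, so a higher neighbour is not read as a property of these pairs. The partners with the lower value of the pair were Rps28 (-0.01 beside 0.11) and Eef1b2 (0.02 beside 0.28), both abundant. Phf14, a PHD finger gene beside Ndufa4, stood at 1.73 and 1.40 RPKM in control and at 2.36 and 3.33 RPKM in knockout (0.58, SE 0.31, limma adjusted p = 0.333). Mrpl36 stood at 92.4 and 90.6 RPKM in control and at 96.2 and 96.8 RPKM in knockout (0.08, SE 0.18), next to Ndufs6 at 0.01. Exonic bases were shared with another gene by 15 of the 36 members, 10 of them with a gene of the table, most on the opposite strand, and 39.0% of the exonic bases of Ndufb6 are shared with Smim27. The sources used here do not say whether reads were counted by strand, so such values are uncertain. Other genes with subunit symbols that are not annotated as protein-coding were also counted. Ndufb1-ps stood at 55.4, 51.0, 55.5 and 57.8 RPKM and Ndufs6b at 11.1, 11.8, 11.4 and 12.3 RPKM (control replicates 1 and 2, then knockout replicates 1 and 2). Ndufb1-ps has 4 transcripts, the longest of 861 bases, and no Ndufb1 is among the members, so it is not treated here as a copy. How reads matching both a gene and a copy of it were assigned is not stated either.

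**Figure D4:**
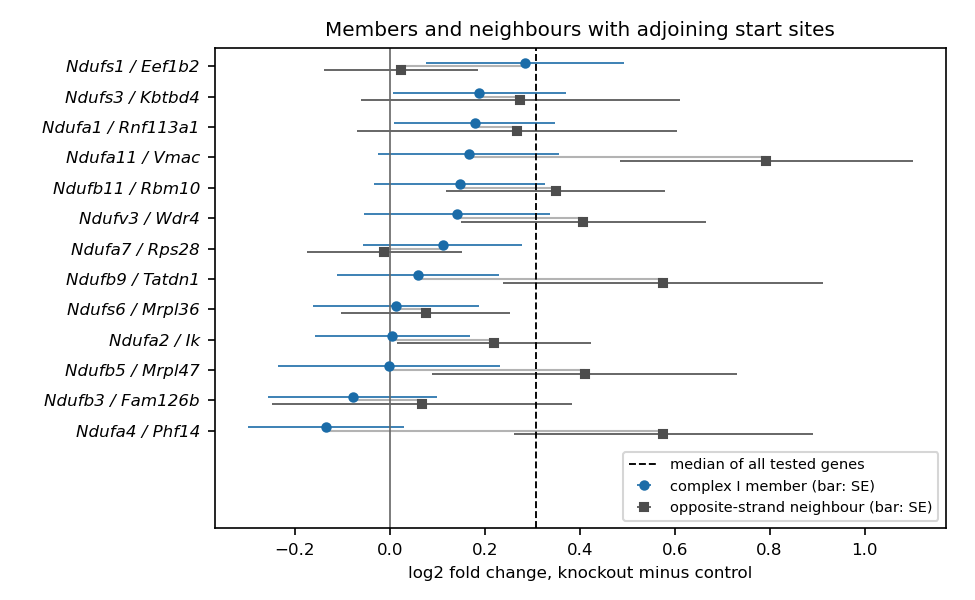
Log2 fold change, knockout minus control, of 13 members (blue circles) and of the opposite-strand neighbour that starts within 1000 bases (grey squares), with SE bars; the dashed line is the median of all tested genes, 0.31. In 11 of the 13 pairs the neighbour has the higher value, with Rps28 and Eef1b2 as the exceptions, and the SE bars are wider for neighbours of low level. All 13 members lie left of the dashed line.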

How the data were processed

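RNA was measured by RNA-seq in 2 control and 2 knockout libraries. The deposited values are RPKM, a unit identified here from the values: RPKM times the length of the longest GENCODE M21 transcript is a whole multiple of 1 step per library, within a tolerance of 0.1 read for 99.3% to 99.4% of values. Per the submitters' processing notes the build was mm10. The aligner and counter are not named in the sources used here. Genes without reads stand at 0.001 RPKM, and every gene reaches at least 1.0063 RPKM in some library. Symbols were found for 12381 of 12390 genes.

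Genes averaging 1 RPKM or more were fitted with limma 3.58.1 in R 4.3.3, on log2(RPKM + 1) with a mean-variance trend and genotype as its term, on 2 residual degrees of freedom. Prior degrees of freedom were infinite, so each gene's spread was replaced by the trend, and intervals and p-values rest on that trend. The procedure was checked on simulated data in 20 draws: directions and large changes were recovered, but false calls took a larger share of calls than the adjusted threshold of 0.05 allows, so counts of called genes over the whole table may be too high. Fold changes on this scale understate low genes. Reads are not independent molecules, and depth intervals were not computed. The members, lists and named genes were chosen with earlier results of these data known. One member is counted in the fit and the lists but not reported singly here. The named genes were the other nuclear core subunits, the 3 largest changes each way, the highest and lowest levels and the widest replicate gaps. Other genes given with values (Ndufa8, Ndufa12, Ndufb3, Ndufb4 and Ndufs6, the assembly factors Ndufaf1, Tmem126b and Tmem70, and the neighbours) were chosen after their values were seen, as were the promoters printed. Replicate numbers in the titles were tested as a block: deviations of same-numbered libraries from their group means correlated at 0.067, and no label says they share a source.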

Additional observations from a re-analysis of the deposited data

How the results depend on the processing

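Across 12 alternative settings, 1 of them chosen after seeing the data (the spread of each gene alone), the count of called complex I subunits stayed at 0 except when knockout replicate 1 was left out. Leaving out each library in turn gave 0 to 3 called subunits. The median log2 fold change of the subunits, 0.11, became -0.25 after TMM-type rescaling and -0.24 with voom on rescaled reads, and stayed between 0.04 and 0.16 when single libraries were left out. Both rescalings subtract the larger shift of the knockout libraries by construction.

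Counts over all genes moved far more. The 391 genes higher and 101 lower became 0 and 0 after rescaling, 0 and 0 after quantile normalization, 21 and 7 with voom and 0 and 0 with the spread of each gene alone, where 1829, 1748, 1967 and 567 genes had an unadjusted p under 0.05. Without the mean-variance trend 52 were lower. Leaving out each library gave 27 to 6381 higher and 5 to 526 lower. With the replicate block, on titles that share a number only, 175 were higher and 64 lower, and 0 subunits were called. Lost calls under the block do not show weaker effects.

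The sign of named subunits turned below 0 after rescaling for Ndufa13 (-0.14), Ndufa2 (-0.37), Ndufa6 (-0.16), Ndufb2 (-0.035), Ndufs1 (-0.079), Ndufs3 (-0.18), Ndufs4 (-0.094), Ndufs7 (-0.29), Ndufs8 (-0.32), Ndufv1 (-0.29) and Ndufv2 (-0.31). With voom the same 11 genes stood at -0.13, -0.35, -0.16, -0.055, -0.076, -0.17, -0.092, -0.28, -0.31, -0.27 and -0.29. Quantile normalization turned Ndufb2 to -0.12. Leaving out each library gave -0.046 to 0.057 for Ndufa2 and -0.032 to 0.14 for Ndufs8, both below 0 without control replicate 2 and without knockout replicate 2. The cause of the last turns was not tested.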
